A study of Homo sapiens with 36 samples.

Results

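Aminoacyl-tRNA synthetases join each amino acid to its tRNA, and these data gave the mRNA levels of 36 of their genes in cisplatin-resistant human embryonal carcinoma cells, a testicular germ cell tumor type. The genes were taken by symbol from a list, which does not hold every synthetase gene, and comprised 20 cytosolic enzymes and 16 mitochondrial enzymes, the latter with symbols ending in 2. All 36 were measured in each of the 3 experiments, among 16431, 17035 and 16459 genes, of 18078 genes measured in any experiment. RNA sequencing covered 36 libraries, with 4 groups of 3 in each experiment. In the first, NT2/D1-A4 cells received no drug (VC), cisplatin (0.5 µM for 6 h), GSK-J4 (1 µM for 3 days) or GSK-J4 followed by cisplatin (Combination). The second experiment gave 2102EP-C1 cells the same 4 treatments. In the third, 2102EP-C1 cells carried either the empty vector pLKO1 or short hairpins against KDM6A and KDM6B (sh6A+6B), each without and with cisplatin at the same dose. GSK-J4 inhibits KDM6A and KDM6B, which remove the repressive mark H3K27me3 from histones, and cisplatin crosslinks DNA. Each line is a single resistant clone, the cells had recovered without cisplatin until the next day, and 1 hairpin was used per gene. The study calls the libraries of a group biological replicates, and the labels do not say whether they came from separate cultures. The p-values measure the spread between these libraries, which may be partly technical.

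Cytosolic synthetases charge the tRNAs used by cytoplasmic ribosomes, and some of them sit together in the multisynthetase complex. Mitochondrial synthetases are encoded by nuclear genes of their own and serve the translation of the respiratory chain subunits made inside the organelle, except that GARS1 and KARS1 supply both compartments. Uncharged tRNA activates the kinase GCN2 (EIF2AK4), and the transcription factor ATF4 that is then produced binds C/EBP-ATF response elements and raises transcription of amino acid transporters, amino acid synthesis enzymes and many cytosolic synthetases. Of the cytosolic genes listed here, 12 are known as ATF4 targets (AARS1, CARS1, EPRS1, GARS1, IARS1, LARS1, MARS1, NARS1, SARS1, TARS1, WARS1 and YARS1), and the other 8 (FARSA, FARSB, HARS1, KARS1, QARS1, RARS1, TARS3 and VARS1) were not on that list.

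Libraries held 26840000 to 49520000 counted reads for NT2/D1-A4, 30250000 to 53650000 for 2102EP-C1 in the GSK-J4 experiment and 79380000 to 100870000 in the knockdown experiment. The synthetase gene with the fewest reads in a library was VARS2, with 214, 169 and 491 reads in the 3 experiments. Levels are given as log2 CPM, the log2 of reads scaled to the size of the library. Over the 4 groups of an experiment, the median SD of a synthetase gene within a group was 0.03 log2 CPM in NT2/D1-A4. It was 0.04 log2 CPM for 2102EP-C1 in the GSK-J4 experiment and 0.02 log2 CPM in the knockdown experiment. All 12 embryonal carcinoma markers were measured, with TNFRSF8 (CD30) low in NT2/D1-A4 at 0.17 log2 CPM without drug. Their summed level ran from 10040 to 10270 CPM without drug and from 8683 to 8926 CPM with GSK-J4 in NT2/D1-A4, and from 12930 to 13310 and from 11560 to 11840 CPM in 2102EP-C1. It was 12190 to 12250 CPM with pLKO1 and 11630 to 11750 CPM with sh6A+6B. Singly they moved both ways. By adjusted p under 0.05 (limma-trend), 3 were higher and 7 lower with GSK-J4 in NT2/D1-A4, from -0.79 to 0.75 on the log2 scale. The numbers were 1 and 7 in 2102EP-C1, and 6 and 5 with sh6A+6B. Of all genes 24.5% and 23.8%, 19.2% and 16%, and 25.6% and 27.2% were higher and lower. Of 15 markers of other cell types, 3, 2 and 1 passed the authors' filter on low levels, and these summed to at most 7.60, 27.0 and 25.6 CPM in any library. With GSK-J4 in NT2/D1-A4 the neural marker PAX6 rose by 1.65 and the yolk sac marker AFP by 1.41 on the log2 scale, and the fibroblast marker COL1A1 had -0.24 (adjusted p = 0.063, limma-trend). All 3 were low there, summing to 5.97 to 6.79 CPM without drug and 5.92 to 6.56 CPM with GSK-J4. In 2102EP-C1 AFP rose by 1.75 and COL1A1 by 0.36, and with sh6A+6B COL1A1 fell by 0.28. AFP had no more than 30 reads in a library. The part of these markers in the synthetase results was not tested, and in bulk RNA fewer cells of a type and less RNA per cell cannot be told apart. The knockdown was visible in its targets: KDM6A and KDM6B were at 7.16 and 4.63 log2 CPM with pLKO1 and 6.15 and 3.62 log2 CPM with sh6A+6B.

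In untreated cells the cytosolic enzymes were the abundant class. Per kilobase of transcript, the median cytosolic gene stood at 88.5 CPM in NT2/D1-A4, 98.6 CPM in 2102EP-C1 and 107 CPM with pLKO1, and the median mitochondrial gene at 10.4, 10.2 and 9.46 CPM. The ranges overlapped. KARS1, which charges lysine tRNA in both compartments, led in NT2/D1-A4 at 165 CPM per kilobase, followed by TARS1 (threonine) at 155 CPM per kilobase. In 2102EP-C1, GARS1 (glycine) led at 180 CPM per kilobase, and NARS1 (asparagine) and TARS1 followed at 177 and 176 CPM per kilobase, and neighbours in this order differed by less than the SD of NARS1. Among mitochondrial genes IARS2 (isoleucine) was the highest in all 3 experiments, with 66.5, 66.3 and 69.8 CPM per kilobase. The mitochondrial valyl enzyme gene VARS2 was the lowest, with 2.88, 2.03 and 2.15 CPM per kilobase, and TARS3, a second cytosolic threonyl enzyme gene, reached 5.89, 5.03 and 5.23 CPM per kilobase.

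GSK-J4 alone raised a large share of the cytosolic synthetase genes in NT2/D1-A4 cells, while no mitochondrial synthetase gene rose. A gene is said to have risen or fallen where its adjusted p was under 0.05 (limma-trend, Benjamini-Hochberg over all genes), and to have passed both thresholds where its fold change was also over 1.3. Of the 20 cytosolic genes, 12 rose and 6 fell, against 24.5% and 23.8% of all genes. Both thresholds were passed by 7 upward and 1 downward, against 13.8% and 6.48% of all genes. Among the 16 mitochondrial genes none rose and 7 fell, 1 of them past both thresholds. With unscaled library sizes 1 mitochondrial gene rose and 6 fell. The median log2 fold change was 0.25 for the cytosolic and -0.10 for the mitochondrial genes, against 0.01 for all genes. In the summed level of the class the cytosolic genes went from 5204 ± 49.9 CPM to 6514 ± 40.1 CPM and the mitochondrial genes from 773 ± 9.72 CPM to 713 ± 7.41 CPM (SD, n = 3 each).

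Every cytosolic gene that rose was on the ATF4 target list. That list came from general knowledge but was set with earlier results of these data known, so the split is a description and not a test. All 12 genes of that list rose in NT2/D1-A4, and in each of them the 3 GSK-J4 libraries lay above the 3 VC libraries, as they did for 30.4% of all genes. The median log2 fold change of the list was 0.40, ranging from 0.11 for LARS1 (leucine) to 1.21 for SARS1. The other 8 cytosolic genes had a median of -0.21: none of them rose and 6 fell.

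SARS1, the seryl enzyme, showed the largest change of the 36 genes. It stood at 7.12, 7.08 and 7.10 log2 CPM without drug and at 8.31, 8.29 and 8.33 log2 CPM with GSK-J4 (log2 fold change 1.21, SE 0.04, adjusted p = 1.7e-14 by limma-trend). The groups were far apart and the libraries within each lay close together, giving 2.32 times the untreated level. CARS1 (cysteine) went from 5.48, 5.43 and 5.49 to 6.58, 6.53 and 6.53 log2 CPM (log2 fold change 1.08, SE 0.04, limma-trend adjusted p = 7.2e-14). GARS1 went from 8.03, 7.98 and 7.99 to 8.93, 8.96 and 8.97 log2 CPM (log2 fold change 0.95, SE 0.03, limma-trend adjusted p = 9.2e-15). WARS1, the tryptophanyl enzyme that is also known as an interferon-induced gene, went from 7.95, 7.91 and 7.91 to 8.84, 8.87 and 8.90 log2 CPM (log2 fold change likewise 0.95, SE 0.03, limma-trend adjusted p = 2.2e-14). YARS1 (tyrosine) followed at 8.06, 8.06 and 8.09 log2 CPM without drug and 8.64, 8.65 and 8.68 log2 CPM with GSK-J4 (log2 fold change 0.59, SE 0.03, adjusted p = 1.8e-11 by limma-trend). None of these 5 genes had overlapping groups. AARS1 (alanine) and EPRS1 (glutamate and proline) passed the fold limit narrowly, each with a log2 fold change of 0.40.

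Downward changes were smaller. QARS1, the glutaminyl enzyme of the multisynthetase complex, fell from 7.55, 7.54 and 7.58 to 7.15, 7.11 and 7.15 log2 CPM (log2 fold change -0.42, SE 0.04, limma-trend adjusted p = 2.1e-08). AARS2, the mitochondrial alanyl enzyme, fell from 5.08, 5.13 and 5.09 to 4.73, 4.72 and 4.67 log2 CPM (log2 fold change -0.39, SE 0.06, limma-trend adjusted p = 4e-05). Its fold change sat at the limit of 1.3 and was under it without VC replicate 2 or GSK-J4 replicate 3, leaving 0 mitochondrial genes past both thresholds. EARS2, the mitochondrial glutamyl enzyme, stayed just inside the limit at -0.34. GGA2, which overlaps EARS2, had a log2 difference of -0.40, and its part in the value of EARS2 was not tested. The 7 listed genes of the multisynthetase complex split, with EPRS1, MARS1, IARS1 and LARS1 higher, QARS1 and RARS1 lower and KARS1 at -0.05 (adjusted p = 0.16, limma-trend), for a median of 0.11.

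**Figure D1:**
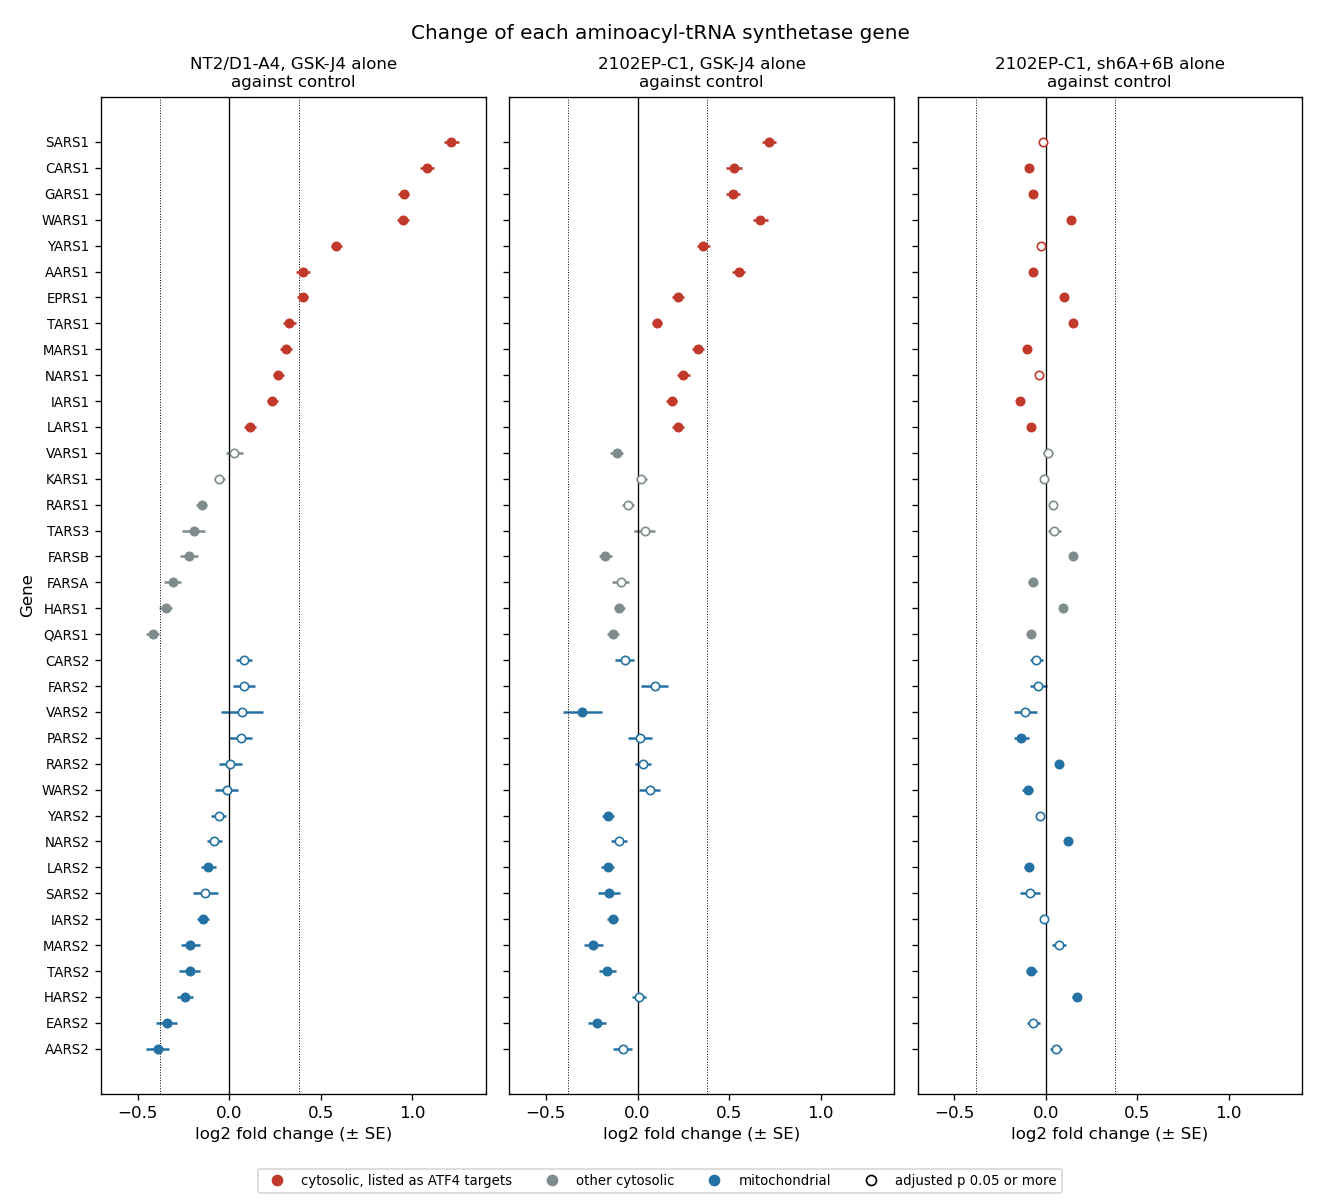
Log2 fold change of each synthetase gene (y axis) with GSK-J4 or sh6A+6B alone against its control, with bars of 1 SE from 12 libraries per experiment, open circles for an adjusted p of 0.05 or more and dotted lines at a fold of 1.3. The 12 cytosolic ATF4 targets lie to the right of 0 in both GSK-J4 panels, from 0.11 to 1.21 in NT2/D1-A4 and from 0.11 to 0.72 in 2102EP-C1, while in the knockdown panel all 36 genes lie between -0.14 and 0.17.

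In 2102EP-C1 cells GSK-J4 alone raised the same 12 ATF4 targets, with a lower median. The 12 were all the cytosolic genes that rose, and 4 fell, against 19.2% and 16% of all genes. This split too is a description, as the list was set with earlier results known. In all 12 the GSK-J4 libraries lay above the VC libraries, as for 23.8% of all genes. Both thresholds were passed by 5 cytosolic genes, all upward, against 7.79% of all genes. No mitochondrial gene rose and 8 fell, none past both thresholds, against 3.12% of all genes downward. The median log2 fold change was 0.20 for cytosolic genes, 0.35 for the ATF4 targets, -0.10 for the other 8 cytosolic genes and -0.12 for mitochondrial genes, against 0.00 for all genes. Without VC replicate 1 the number of cytosolic genes that fell was 2.

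SARS1 led here too, with 7.71, 7.68 and 7.70 log2 CPM without drug and 8.44, 8.41 and 8.41 log2 CPM with GSK-J4 (log2 fold change 0.72, SE 0.04, limma-trend adjusted p = 1.5e-13). WARS1 went from 8.23, 8.20 and 8.23 to 8.86, 8.92 and 8.90 log2 CPM (log2 fold change 0.67, SE 0.04, limma-trend adjusted p = 1.2e-12). AARS1 went from 8.41, 8.39 and 8.43 to 8.95, 8.99 and 8.94 log2 CPM (log2 fold change 0.55, SE 0.04, limma-trend adjusted p = 7.8e-12). All 3 genes had GSK-J4 libraries well above the VC libraries. CARS1 went from 6.10, 6.01 and 6.05 to 6.61, 6.61 and 6.52 log2 CPM (log2 fold change 0.53, SE 0.04). GARS1 went from 8.77, 8.79 and 8.77 to 9.24, 9.28 and 9.36 log2 CPM (log2 fold change 0.52, SE 0.04). Here GSK-J4 replicate 3 was the highest library for GARS1 and the lowest for CARS1. Of the mitochondrial genes, YARS2 had the lowest adjusted p, at 7.13, 7.10 and 7.13 log2 CPM without drug and 6.97, 6.98 and 6.93 log2 CPM with GSK-J4 (log2 fold change -0.16, adjusted p = 0.00037, limma-trend). MARS2, the mitochondrial methionyl enzyme, followed at 4.46, 4.46 and 4.52 against 4.19, 4.25 and 4.27 log2 CPM (log2 fold change -0.24, adjusted p = 0.00065, limma-trend).

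The GSK-J4 effects of the 2 lines came from separate libraries and could be set side by side. Across the 20 cytosolic genes the log2 fold changes in NT2/D1-A4 and 2102EP-C1 had a Pearson r of 0.93 and a Spearman rho of 0.91, with the same sign for 17. Across the 16 mitochondrial genes r was 0.33 and rho 0.39, with the same sign for 12. These are descriptions across genes, which are not independent replicates. The size of the change between lines differed by gene: CARS1 had 1.08 in NT2/D1-A4 and 0.53 in 2102EP-C1, whereas AARS1 had 0.40 and 0.55 and MARS1 0.31 and 0.33. The files were normalized separately, so these differences were not tested.

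**Figure D2:**
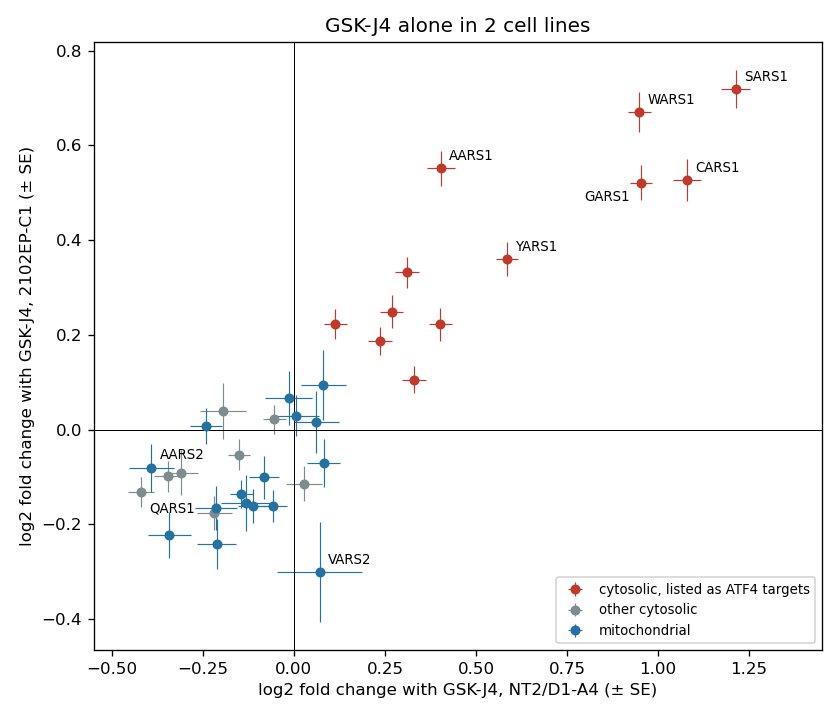
Log2 fold change with GSK-J4 alone in NT2/D1-A4 (x axis) and in 2102EP-C1 (y axis) for the 36 synthetase genes, with bars of 1 SE and colours for the 3 gene groups. SARS1 lies at 1.21 and 0.72, the ATF4 targets fill the upper right, and the mitochondrial genes lie between -0.39 and 0.08 on the x axis.

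Enzymes for the same amino acid in the 2 compartments mostly parted with GSK-J4. For 13 amino acids the cytosolic gene numbered 1 was paired with the mitochondrial gene numbered 2. TARS3, a second cytosolic gene for threonine, was not in the pairs. In NT2/D1-A4 its mean was 4.36 log2 CPM without drug and 4.16 log2 CPM with GSK-J4. For 10 of the 13 pairs in NT2/D1-A4 and 11 in 2102EP-C1, the cytosolic change with GSK-J4 was above the mitochondrial change. The median difference was 0.52 and 0.38 on the log2 scale. The widest gap was that of serine in both lines, 1.35 and 0.87, since the mitochondrial gene SARS2 stood at -0.13 and -0.16. Except for histidine, arginine and valine, the cytosolic gene of each pair was on the ATF4 target list, so the pairs largely repeat that split. The 8 cytosolic genes not on the list had medians of -0.21 and -0.10 in the 2 lines, against -0.10 and -0.12 for the mitochondrial genes. With sh6A+6B the cytosolic change was above for 6 of the 13 and the median difference was -0.03.

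Promoter sequences were read to see which of these genes hold the letters of a C/EBP-ATF response element near their start. RefSeq windows of 250 bases before to 50 after the start (GRCh38.p14) existed for 30 of the 36 genes, not for LARS1, TARS3, VARS1, YARS1, AARS2 and VARS2. The motif searched was TGATGNAA on both strands, which reads TTNCATCA in the other direction. It was present for 7 of 10 ATF4 targets with a window, 0 of 6 other cytosolic genes and 1 of 14 mitochondrial genes. Of all 13404 measured genes with a window 3.08% held it, and of all 35116 windows 3.62%. A match in any window of a gene counted, and 9 of the 30 genes had over 1 window. ATF4 binds this element, so the list of its targets and the motif are not independent, and these counts are a description. The sequences with the matched letters in capitals, 5′ to 3′ on the strand of the gene, are shown because they are the matched stretches:
AARS1: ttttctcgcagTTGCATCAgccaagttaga
CARS1: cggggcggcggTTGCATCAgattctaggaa
GARS1: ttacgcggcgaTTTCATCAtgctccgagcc
IARS1: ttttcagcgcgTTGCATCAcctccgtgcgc
MARS1: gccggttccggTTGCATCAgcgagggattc
NARS1: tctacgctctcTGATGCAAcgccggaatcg
TARS1: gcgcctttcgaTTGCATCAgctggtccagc
YARS2: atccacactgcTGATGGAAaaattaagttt
They lie at chr16:70289675-70289704 (AARS1, minus strand), chr11:3057407-3057436 (CARS1, minus), chr7:30594834-30594863 (GARS1, plus), chr9:92293692-92293721 (IARS1, minus), chr12:57488053-57488082 (MARS1, plus), chr18:57621804-57621833 (NARS1, minus), chr5:33440956-33440985 (TARS1, plus) and chr12:32756076-32756105 (YARS2, minus). Of the genes with the largest changes, CARS1 and GARS1 held a match, at positions -2 and -33 from the start, and SARS1 and WARS1 held none in their windows. YARS2, the mitochondrial gene with a match at -197, was at -0.06 and -0.16 with GSK-J4 on the log2 scale. A match is a description of letters, not a binding site. For comparison, the E-box CACGTG was found for 1 of 16 cytosolic and 3 of 14 mitochondrial genes, against 11.8% of measured genes, and the NRF1 motif for 3 of 16 and 3 of 14, against 11.7%.

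HARS1 and HARS2, the cytosolic and the mitochondrial histidyl enzymes, start head to head, 84 bases apart at chr5:140691371-140691454 (GRCh38.p14), and the stretch between their starts is printed because 1 short interval lies upstream of both genes:
HARS1-HARS2: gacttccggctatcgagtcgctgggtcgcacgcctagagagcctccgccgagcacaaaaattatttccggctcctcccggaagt
The 2 genes fell together with GSK-J4 in NT2/D1-A4, HARS1 from 6.85, 6.79 and 6.78 to 6.47, 6.50 and 6.41 log2 CPM and HARS2 from 5.62, 5.65 and 5.63 to 5.46, 5.37 and 5.35 log2 CPM. Their log2 fold changes were -0.35 (SE 0.04) and -0.24 (SE 0.04), with limma-trend adjusted p-values of 3.3e-07 and 0.00013. In 2102EP-C1 HARS1 fell by 0.10 on the log2 scale while HARS2 stood at 0.01 (adjusted p = 0.89, limma-trend). With sh6A+6B both rose, by 0.10 and 0.17 on the log2 scale, with limma-trend adjusted p-values of 0.00016 and 3.2e-06.

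Knockdown of KDM6A and KDM6B left the synthetase genes near their control levels. No synthetase gene passed both thresholds with sh6A+6B alone, against 6.34% of all genes upward and 5.74% downward. By the adjusted p alone, 5 cytosolic genes rose and 8 fell, and 3 mitochondrial genes rose and 4 fell, against 25.6% and 27.2% of all genes. By unadjusted p under 0.05 the count was 21 of 36, against 57.7% of all genes. Of the ATF4 targets 3 rose and 6 fell, with a median of -0.05, and of the other 8 cytosolic genes 2 rose and 2 fell, with a median of 0.03. TARS1 had the lowest adjusted p, with 9.14, 9.16 and 9.15 log2 CPM for pLKO1 and 9.29, 9.29 and 9.31 log2 CPM for sh6A+6B (log2 fold change 0.15, SE 0.01, adjusted p = 8.5e-09, limma-trend). IARS1 fell from 8.73, 8.74 and 8.73 to 8.58, 8.60 and 8.60 log2 CPM (log2 fold change -0.14, SE 0.02, limma-trend adjusted p = 1e-07). Both changes were small and their groups did not overlap, which at this depth held for 28.3% of all genes upward and 29.9% downward. SARS1, the leading gene with GSK-J4, stood at 7.94, 7.95 and 7.94 log2 CPM with pLKO1 and 7.93, 7.93 and 7.91 log2 CPM with sh6A+6B (log2 fold change -0.02, adjusted p = 0.43, limma-trend).

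**Figure D3:**
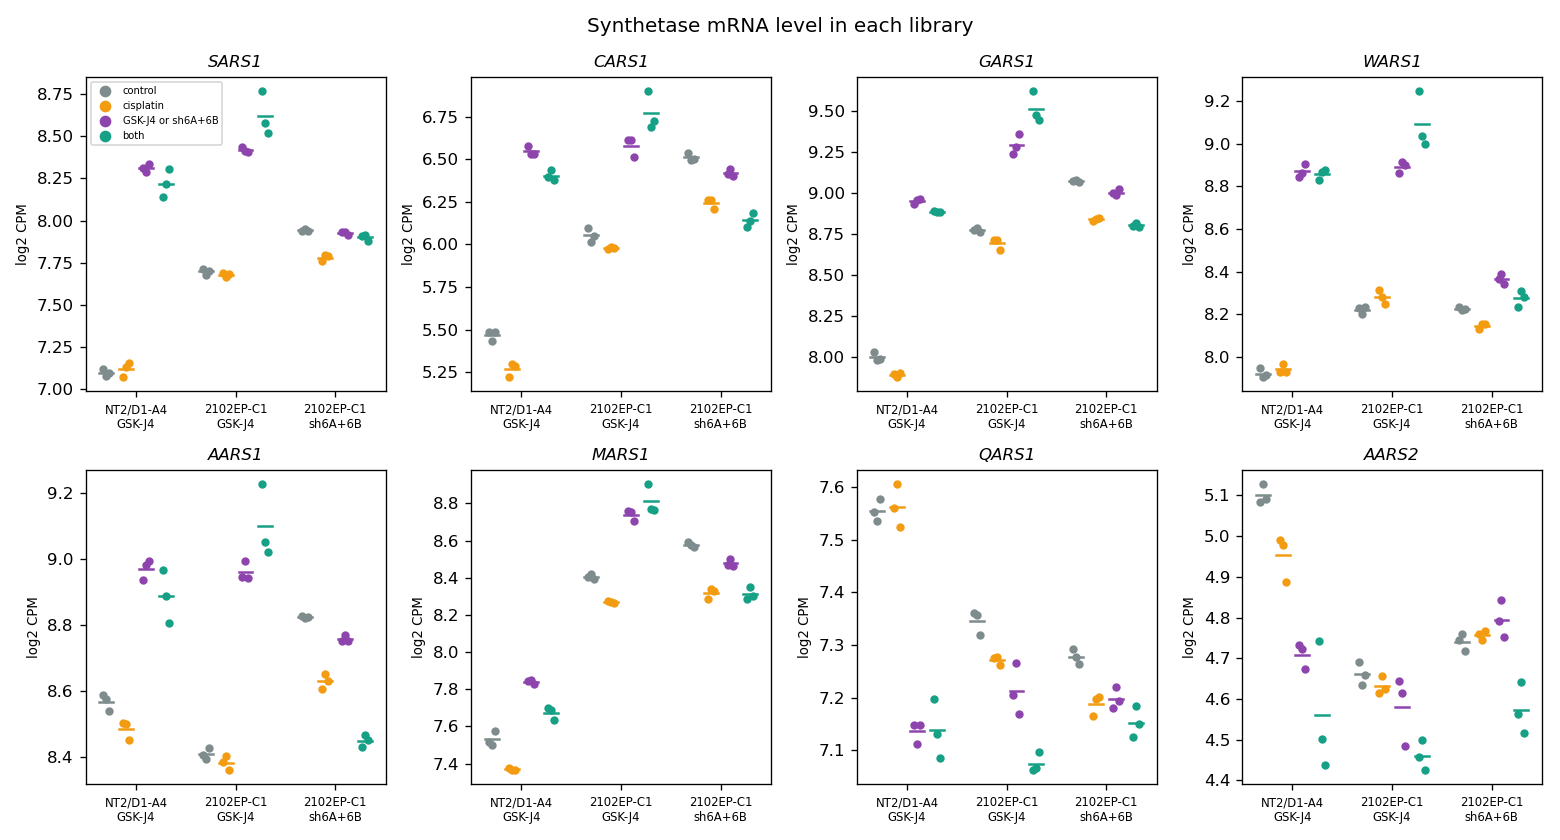
Log2 CPM (y axis) of 8 synthetase genes in each of the 36 libraries, by experiment (x axis) and group (colour), with a line at the mean of 3 libraries; each y axis has its own range and the 3 experiments were normalized separately. SARS1 with GSK-J4 sits at 8.29 to 8.33 in NT2/D1-A4, above 7.08 to 7.12 without drug, and in the knockdown experiment it lies at 7.94 to 7.95 with pLKO1 and 7.91 to 7.93 with sh6A+6B.

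Few synthetase genes had an adjusted p under 0.05 (limma-trend) with cisplatin alone in the 2 GSK-J4 experiments. In NT2/D1-A4 no synthetase gene passed both thresholds, against 2.05% of all genes upward and 0.396% downward, and by adjusted p 3 cytosolic genes and 1 mitochondrial gene fell, against 3.58% of all genes, while none rose, against 5.85%. By unadjusted p under 0.05 the count was 14 of 36, against 24.7% of all genes. A fit to these 2 groups alone had 8 cytosolic and 3 mitochondrial genes that fell. In that fit 2431 of all 16431 genes passed in either direction, against 1550 in the full fit. CARS1 went from 5.48, 5.43 and 5.49 to 5.22, 5.30 and 5.29 log2 CPM (log2 fold change -0.20, SE 0.04, adjusted p = 0.003, limma-trend). MARS1, the methionyl enzyme, went from 7.52, 7.50 and 7.57 to 7.37, 7.36 and 7.37 log2 CPM (log2 fold change -0.16, SE 0.03, adjusted p = 0.0041, limma-trend). The cisplatin libraries of both genes were below the controls, as for 2532 of all 16431 genes. GARS1 fell by 0.11 and YARS2 by 0.15 on the log2 scale. Without any 1 of the 6 libraries except Cisplatin replicate 3, no mitochondrial gene fell.

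In 2102EP-C1 no synthetase gene passed both thresholds with cisplatin, against 0.881% and 0.188% of all genes, and MARS1 and SARS2 fell, against 1.02% of all genes, while none rose, against 3.06%. MARS1 went from 8.40, 8.42 and 8.39 to 8.27, 8.27 and 8.27 log2 CPM (log2 fold change -0.14, adjusted p = 0.015, limma-trend). SARS2 went from 4.16, 4.13 and 4.09 to 3.92, 3.85 and 3.99 log2 CPM (log2 fold change -0.21, adjusted p = 0.046, limma-trend). Neither call was firm, since SARS2 lost it without any 1 of the 6 libraries and MARS1 without any 1 but VC replicate 3. By unadjusted p under 0.05 the count was 6 of 36, against 16.7% of all genes. A fit to these 2 groups alone had 4 cytosolic and 2 mitochondrial genes that fell. In that fit 2054 of all 17035 genes passed in either direction, against 695 in the full fit.

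The pLKO1 cells, sequenced more deeply, showed a shallow fall of nearly all cytosolic synthetases with cisplatin. All 20 cytosolic genes had a lower mean, against 8410 of all 16459 genes. By adjusted p 17 fell, against 18.2% of all genes, while none rose, against 17.9%. None passed both thresholds, against 2.53% of all genes upward and 0.462% downward. Of the mitochondrial genes 4 fell and none rose. The cytosolic median was -0.09, the mitochondrial median -0.02 and the median of all genes 0.00. GARS1 went from 9.07, 9.08 and 9.07 to 8.83, 8.84 and 8.85 log2 CPM (log2 fold change -0.23, SE 0.0148, limma-trend adjusted p = 3.3e-11). MARS1 went from 8.59, 8.58 and 8.56 to 8.29, 8.34 and 8.33 log2 CPM (log2 fold change -0.26, SE 0.02, limma-trend adjusted p = 3.6e-10). These 2 genes and CARS1, at -0.27, had the largest falls of the 36. Their groups did not overlap, as for 4167 of all 16459 genes downward. The summed cytosolic level went from 6051 ± 28.9 to 5561 ± 26.4 CPM (SD, n = 3 each).

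GSK-J4 followed by cisplatin, against the same VC libraries, kept the cytosolic rise. In NT2/D1-A4 12 cytosolic genes rose and 7 fell, against 27.5% and 26.5% of all genes. Both thresholds were passed by 5 upward (SARS1, CARS1, WARS1, GARS1 and YARS1) and 2 downward (QARS1 and TARS3), against 15.9% and 9.56% of all genes. SARS1 stood at 8.14, 8.22 and 8.30 log2 CPM in the Combination libraries (log2 fold change 1.12, SE 0.04, limma-trend adjusted p = 4.8e-14). CARS1 stood at 6.40, 6.44 and 6.38 and WARS1 at 8.83, 8.87 and 8.88 log2 CPM, each with a log2 fold change of 0.94. All Combination libraries of these 3 genes were above all VC and all cisplatin libraries. Combination libraries lay above VC libraries for 4810 of all 16431 genes. In the mitochondria AARS2 and EARS2 passed both thresholds downward, at -0.54 and -0.39, 9 genes fell in all and 2 rose. Without VC replicate 1 the first count was 1 and the last 0, and without VC replicate 2 or Combination replicate 2 the last was 1.

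In 2102EP-C1 the Combination values of the ATF4 targets were higher still. Of the cytosolic genes 12 rose and 5 fell, against 27.4% and 25.6% of all genes. Both thresholds were passed by 8, all upward and all ATF4 targets, against 12.8% of all genes. SARS1 stood at 8.77, 8.58 and 8.52 log2 CPM (log2 fold change 0.92, SE 0.04, limma-trend adjusted p = 3e-16). WARS1 stood at 9.25, 9.04 and 9.00 log2 CPM (log2 fold change 0.87, SE 0.04) and GARS1 at 9.62, 9.48 and 9.45 log2 CPM (log2 fold change 0.74, SE 0.04). In all 3 genes Combination replicate 1 was the highest library. Among the mitochondrial genes 9 fell and 1, RARS2 (arginine), rose, a call lost without VC replicate 2. VARS2 alone passed both thresholds, downward, against 9.77% of all genes, with 2.85, 2.80 and 2.93 log2 CPM without drug and 2.32, 2.15 and 2.40 log2 CPM in Combination (log2 fold change -0.57, SE 0.11, limma-trend adjusted p = 5.4e-05). It is the gene with the fewest reads of the 36, and without VC replicate 3 or Combination replicate 1 a second mitochondrial gene passed.

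With sh6A+6B and cisplatin together, against pLKO1, no synthetase gene passed both thresholds, against 8.51% and 7.5% of all genes. By adjusted p 5 cytosolic genes rose and 13 fell, and 5 mitochondrial genes rose and 6 fell, against 30.9% and 31.7% of all genes, and by unadjusted p under 0.05 the count was 30 of 36, against 65.8% of all genes. Without sh6A+6B Cisplatin replicate 3, 3 mitochondrial genes rose. AARS1 went from 8.83, 8.82 and 8.82 to 8.43, 8.47 and 8.45 log2 CPM (log2 fold change -0.38, SE 0.02, limma-trend adjusted p = 1.8e-15), just inside the fold limit, and 1 cytosolic gene was past it without sh6A+6B Cisplatin replicate 2 or 3. GARS1 stood at 8.80, 8.82 and 8.79 against 9.07, 9.08 and 9.07 log2 CPM with pLKO1 (log2 fold change -0.27, SE 0.0148, limma-trend adjusted p = 1.7e-13). Both are genes that GSK-J4 raised in the same line.

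**Figure D4:**
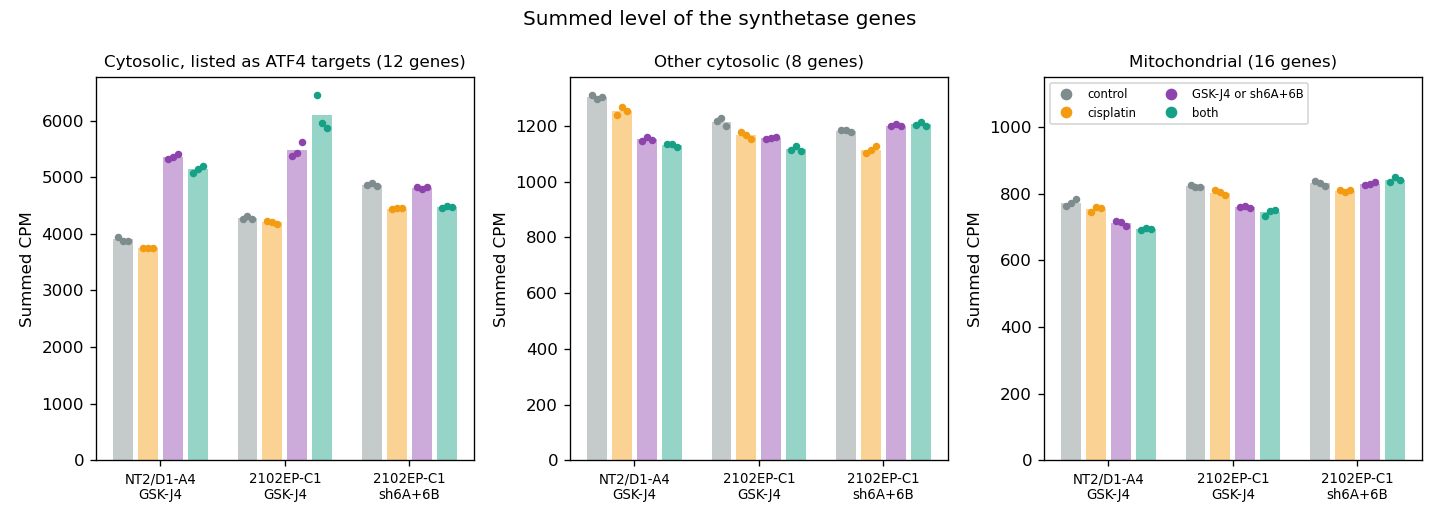
Summed CPM (y axis, from 0) of the 12 cytosolic ATF4 targets, the other 8 cytosolic genes and the 16 mitochondrial genes by experiment (x axis) and group (colour), with bars at the mean of 3 libraries and a point per library. The ATF4 targets went from 3901 CPM to 5361 CPM with GSK-J4 in NT2/D1-A4 and from 4278 to 5475 CPM in 2102EP-C1, where Combination reached 6090 CPM, while the other cytosolic and the mitochondrial sums were lower with GSK-J4.

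The effect of cisplatin on cells already given GSK-J4 was read by comparing Combination with GSK-J4 alone. In NT2/D1-A4 only MARS1 passed the test among the 36 genes, against 0.712% of all genes upward and 0.548% downward, or 0.158% and 0.219% past both thresholds. By unadjusted p under 0.05 the count was 14 of 36, against 14.6% of all genes. It went from 7.85, 7.85 and 7.83 to 7.70, 7.69 and 7.63 log2 CPM (log2 fold change -0.17, SE 0.03, adjusted p = 0.017, limma-trend). CARS1 was next at 6.58, 6.53 and 6.53 against 6.40, 6.44 and 6.38 log2 CPM (log2 fold change -0.14, adjusted p = 0.081, limma-trend). The groups of CARS1 did not overlap, as for 1487 of all 16431 genes downward, but its change did not pass the test. The call for MARS1 was not stable. No cytosolic gene passed without GSK-J4 replicate 1 or 2 or Combination replicate 2 or in a fit to these 2 groups alone. Without Combination replicate 1, 4 cytosolic and 1 mitochondrial gene fell, and without Combination replicate 3, 2 cytosolic genes fell. Of all 16431 genes, 207 passed in either direction in the full fit. The number was 44 and 119 without GSK-J4 replicates 1 and 2, and 32 in the fit to the 2 groups alone. It was 638, 35 and 298 without Combination replicates 1, 2 and 3. The 12 ATF4 targets all had a lower mean after cisplatin, with a median of -0.08.

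In 2102EP-C1 the same comparison ran the other way. There 11 cytosolic genes rose, all ATF4 targets, against 7.64% of all genes. FARSA (phenylalanine), VARS1 (valine) and QARS1 fell, as did the mitochondrial SARS2, against 8.1% of all genes. None passed both thresholds, against 0.916% and 1.31% of all genes. GARS1 went from 9.24, 9.28 and 9.36 to 9.62, 9.48 and 9.45 log2 CPM (log2 fold change 0.22, SE 0.04, adjusted p = 0.00027, limma-trend). VARS1 went from 6.94, 6.96 and 6.80 to 6.67, 6.66 and 6.72 log2 CPM (log2 fold change -0.22, SE 0.04, adjusted p = 0.0003, limma-trend). The groups of both genes were separate, as for 2330 of all 17035 genes upward and 2109 downward. The size of the rise rested in part on single libraries. Combination replicate 1 had a summed cytosolic level of 7555 CPM, against 7091 and 6976 CPM in replicates 2 and 3, and without it 5 genes rose. Without GSK-J4 replicate 1 or 2 the number was 6 or 7, and a fit to these 2 groups alone gave 6. SARS2 did not pass without GSK-J4 replicate 2, and without GSK-J4 replicate 3 the mitochondrial genes numbered 1 up and 5 down. Of all 17035 genes, 2682 passed in either direction in the full fit and 4684 without GSK-J4 replicate 3. The number was 1413 without Combination replicate 1, 1374 and 1356 without GSK-J4 replicates 1 and 2, and 1447 in the fit to the 2 groups alone.

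In knockdown cells cisplatin lowered 10 cytosolic genes and raised 2, against 22.7% and 22.1% of all genes. None passed both thresholds, against 2.48% of all genes upward and 1.04% downward. AARS1 went from 8.75, 8.77 and 8.75 to 8.43, 8.47 and 8.45 log2 CPM (log2 fold change -0.31, SE 0.02, limma-trend adjusted p = 5.8e-13). GARS1 went from 9.00, 8.99 and 9.02 to 8.80, 8.82 and 8.79 log2 CPM (log2 fold change -0.20, SE 0.0148, limma-trend adjusted p = 1.5e-10). Of the ATF4 targets 8 fell and none rose. Without sh6A+6B replicate 2 or sh6A+6B Cisplatin replicate 1 only 1 cytosolic gene rose. Among mitochondrial genes 4 rose and 3 fell, and the number that fell was 1 without sh6A+6B replicate 2 or without sh6A+6B Cisplatin replicate 1 or 3.

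**Figure D5:**
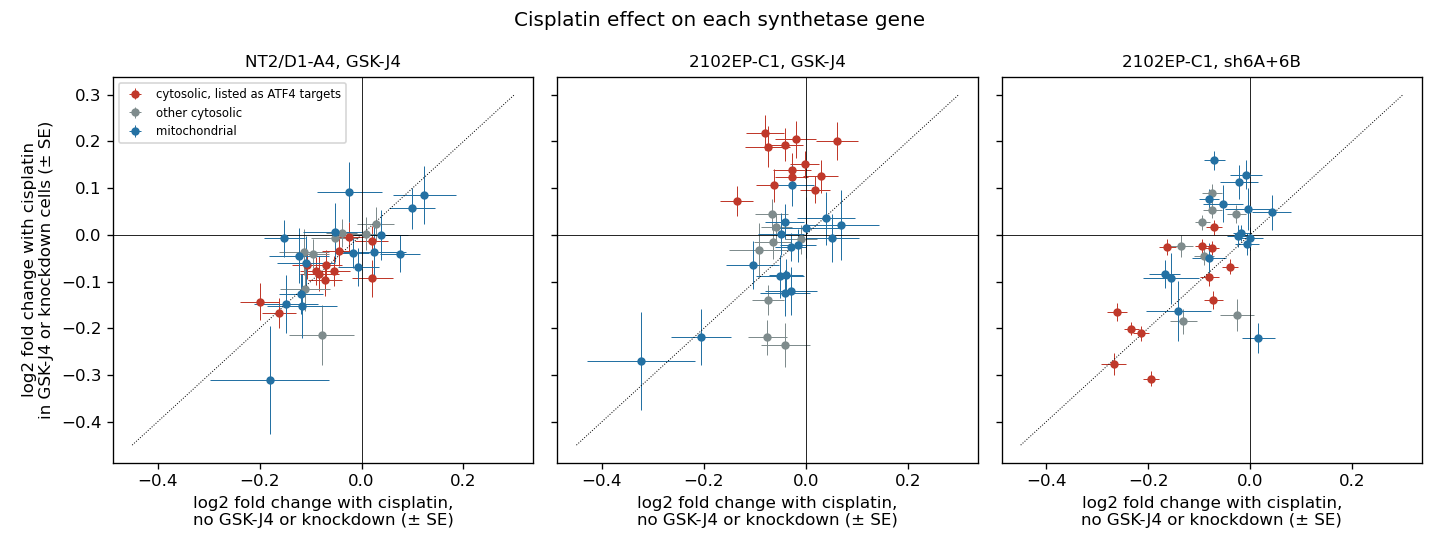
Log2 fold change of the 36 synthetase genes with cisplatin in cells without GSK-J4 or knockdown (x axis) and in cells with it (y axis), 1 panel per experiment, with bars of 1 SE and a dotted line where both are equal. In the 2102EP-C1 GSK-J4 panel the 12 ATF4 targets lie above the line, with y values from 0.07 to 0.22.

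The interaction term, which asks whether cisplatin acted differently after GSK-J4 or knockdown than without, was tested in each experiment. In NT2/D1-A4 no synthetase gene passed, against 0% of all genes upward and 0.0426% downward, and the lowest adjusted p-values were those of YARS2 (0.14, adjusted p = 0.65) and LARS2 (-0.12, adjusted p = 0.69) in limma-trend, with 2 of 36 genes at an unadjusted p under 0.05, against 7.15% of all genes. In 2102EP-C1 with GSK-J4 the term was positive for 6 cytosolic genes (GARS1, CARS1, NARS1, SARS1, MARS1 and TARS1), against 0.734% of all genes upward and 1.64% downward, and none passed both thresholds, against 0.194% and 0.663%. GARS1 had 0.30 (SE 0.05, adjusted p = 0.0026, limma-trend) and NARS1 0.23 (SE 0.05, adjusted p = 0.013, limma-trend). The count rested on few libraries. It was 3 without any 1 VC library, Cisplatin replicate 1 or Combination replicate 1, and 2 without Cisplatin replicate 2 or 3 or GSK-J4 replicate 1. Without GSK-J4 replicate 2 it was 4, without Combination replicate 3 it was 9, and without GSK-J4 replicate 3 it was 13 with 2 negative. The number of all 17035 genes past the test in either direction moved with it. From 405 in the full fit it went to 120 without GSK-J4 replicate 1, 694 without Combination replicate 3 and 2435 without GSK-J4 replicate 3. In the knockdown experiment 9 cytosolic and 4 mitochondrial genes had a positive and 2 and 1 a negative term, against 17.2% and 18% of all genes, none past both thresholds, against 1.09% and 2.67%. Without pLKO1 replicate 1 only 1 cytosolic gene had a negative term. RARS2 had 0.23 (SE 0.03, adjusted p = 1e-06, limma-trend), with 5.91, 5.90 and 5.90 log2 CPM for pLKO1 with cisplatin and 6.21, 6.19 and 6.20 log2 CPM for sh6A+6B with cisplatin. FARSB (phenylalanine) had 0.16 (SE 0.03, adjusted p = 4.6e-05, limma-trend).

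The amino acid stress response genes, 16 other ATF4 targets and regulators, were chosen as a list with earlier results of these data known. With GSK-J4 alone 13 of 16 passed both thresholds upward in NT2/D1-A4 (median log2 fold change 1.42), against 13.8% of all genes, and 12 did in 2102EP-C1 (median 0.88), against 7.79%. With sh6A+6B 3 did (median 0.04), against 6.34%, and by adjusted p alone 8 rose and 2 fell, against 25.6% and 27.2% of all genes (limma-trend). In NT2/D1-A4 the highest were NUPR1, a stress-induced chromatin protein, at 3.99, and CHAC1, which degrades glutathione, at 2.96. The lowest were the kinases EIF2AK4 at -0.04 (adjusted p = 0.43, limma-trend) and EIF2AK3 at 0.31. In 2102EP-C1 TRIB3, a pseudokinase that restrains ATF4, had 3.00 and NUPR1 2.54, and EIF2AK3 had 0.07 and EIF2AK4 0.09. With sh6A+6B NUPR1 had 0.58 and CHAC1 0.40, and ASNS and the serine synthesis enzyme PSAT1 had -0.25 (adjusted p = 0.29, limma-trend) and -0.15. ATF4 mRNA itself rose in all 3 experiments, by 0.38, 0.30 and 0.15 on the log2 scale.

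Of 13 genes whose products assist tRNA charging, 12 were measured. DTD1, which clears D-amino acids from tRNA, rose with GSK-J4 by 0.78 on the log2 scale in NT2/D1-A4 and 0.47 in 2102EP-C1, both past the fold limit, and by 0.20 with sh6A+6B. SEPSECS, the last enzyme in making selenocysteinyl-tRNA, rose by 0.34 and 0.42. The lowest changes in NT2/D1-A4 were those of GATC, a subunit of the mitochondrial glutamyl amidotransferase, at -0.31, and AIMP2, a scaffold of the multisynthetase complex, at -0.18. In 2102EP-C1 they were those of AIMP2 at -0.23 and EEF1E1, another part of that complex, at -0.19. With sh6A+6B AIMP1 had 0.19, SEPHS2, which makes selenophosphate, -0.25, and MTFMT, which formylates the mitochondrial initiator tRNA, -0.13. Median changes of the 12 were 0.01, 0.09 and -0.04.

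Some members overlap other measured genes, and the strand setting of the counting is not given in the sources used here. The part of these genes in the members' values was not tested. DDIT3 (CHOP), a stress-induced transcription factor, overlaps MARS1 on the opposite strand. In NT2/D1-A4 it had a mean of 124 reads without drug and 608 with GSK-J4, while MARS1 had 6490 and 9624, all not scaled to library size. The log2 differences of scaled values were 2.04 for DDIT3 and 0.31 for MARS1. In 2102EP-C1 DDIT3 had 201 and 773 unscaled reads and MARS1 14403 and 13992, with log2 differences of 2.31 and 0.33. ARHGAP9, which also overlaps MARS1, had 25 and 263 reads in NT2/D1-A4. S100PBP overlaps YARS1 and had log2 differences of 0.28, 0.08 and -0.06 in the 3 experiments, against 0.59, 0.36 and -0.02 for YARS1. GGA2 overlaps EARS2 and had log2 differences of -0.40, -0.14 and 0.09, against -0.34, -0.22 and -0.07 for EARS2. It had a mean of 4279 reads without drug in NT2/D1-A4, where EARS2 had 597 to 876. ING1 overlaps CARS2 and had log2 differences of -0.0042 in NT2/D1-A4 and -0.035 in 2102EP-C1. LYRM4 overlaps FARS2 and had 0.07 and -0.12.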

How the data were processed

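RNA sequencing (TruSeq Stranded mRNA libraries) was done in 36 libraries of 2 cell lines. The authors trimmed reads, aligned them with STAR to GRCh38.p14, counted reads with featureCounts, dropped genes that did not reach 0.5 CPM in 2 or more samples, and deposited, for each experiment, log2 CPM values with TMM-scaled library sizes and a prior count of 3, keyed by NCBI gene ID. The version of each tool is not given in the sources used here. Steps in the values matched whole reads, within 0.05 reads, for 100% of the values under 50 reads, which gave library depths. Symbols came from RefSeq.

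From these, limma 3.58.1 (limma-trend, R 4.3.3) was fitted to the 12 libraries of each experiment with 1 mean per group, and p-values were adjusted by Benjamini-Hochberg over all genes of the file. No test was made between files. Levels per kilobase used the canonical transcript of GENCODE 44. The members and lists were chosen with earlier results of these data known. Genes given in every sample were, per experiment, the 5 cytosolic and 3 mitochondrial genes with the largest change past both thresholds with GSK-J4 or sh6A+6B alone, and up to 3 in each other comparison, or the 2 with the lowest adjusted p where none passed. Other genes were named after their values were seen. For the stress and charging lists the 2 highest and 2 lowest changes were given. The fit was tested on simulated data. Alternatives were fits to the compared groups alone, a replicate block, a filter on mean log2 CPM over 1, unscaled library sizes, a prior count of 0.5, voom on the recovered reads, other thresholds and leaving out each library.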

Additional observations from a re-analysis of the deposited data

Results flagged for a closer look

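The interaction of GSK-J4 with cisplatin was past the test in 2102EP-C1 (limma-trend) for GARS1 (0.30 on the log2 scale), CARS1 (0.26), NARS1 (0.23), SARS1 (0.22), MARS1 (0.21) and TARS1 (0.15), against 0.734% of all genes upward. A positive term means that the log2 change with cisplatin was higher after GSK-J4 than without it. With 1 library left out, the count of cytosolic genes with a positive term ran from 2 to 13. The count of all genes past the test in either direction ran from 120 to 2435, against 405 in the full fit. In the knockdown experiment the interaction was positive for RARS2 (0.23), FARSB (0.16), YARS2 (0.16), WARS2 (0.14), SARS1 (0.14), CARS2 (0.14), RARS1 (0.13), KARS1 (0.12), FARSA (0.11), MARS1 (0.10), IARS1 (0.0867), HARS1 (0.071) and TARS1 (0.0704), and negative for AARS2 (-0.24), TARS3 (-0.15) and AARS1 (-0.11). Of all genes 17.2% had a positive and 18% a negative term there.

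For some genes the libraries of the compared groups did not overlap, in opposite directions in the 2 lines, and these differences between lines were not tested. With GSK-J4 alone CARS2 had 0.0814 in NT2/D1-A4 and -0.0701 in 2102EP-C1. In Combination against VC, KARS1 had -0.0946 and 0.0381 and CARS2 0.14 and -0.0769. For cisplatin after GSK-J4 the values in NT2/D1-A4 and 2102EP-C1 were -0.14 and 0.19 for CARS1, -0.0646 and 0.22 for GARS1, -0.17 and 0.0726 for MARS1, -0.0638 and 0.19 for NARS1, -0.10 and 0.15 for TARS1, -0.0777 and 0.11 for YARS1, and -0.13 and 0.0286 for HARS2. Most of these changes did not pass the test within their line (limma-trend). Those that did were KARS1 and CARS2 in Combination and MARS1 for cisplatin after GSK-J4 in NT2/D1-A4, and CARS1, GARS1, NARS1, TARS1 and YARS1 for cisplatin after GSK-J4 in 2102EP-C1. For cisplatin after GSK-J4 the groups did not overlap for 1494 genes higher and 1487 lower of all 16431 in NT2/D1-A4, and 2330 higher and 2109 lower of all 17035 in 2102EP-C1. With GSK-J4 alone these numbers were 4996 and 4801 in NT2/D1-A4, and 4053 and 3536 in 2102EP-C1. In Combination against VC they were 4810 and 4747 in NT2/D1-A4, and 5377 and 5092 in 2102EP-C1.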

How the results depend on the processing

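No called change reversed under any alternative. The genes past both thresholds kept an adjusted p under 0.05 in all 12 alternatives run for each, and the narrow ones lost the fold limit in some: in NT2/D1-A4, AARS2 with GSK-J4 alone and EARS2 in Combination passed it in 9 of 12, TARS3 in Combination in 10 and QARS1 in both comparisons in 11, and in 2102EP-C1 Combination MARS1 passed it in 11. Of 242 tests of named genes, unscaled library sizes in place of TMM ended 13 calls, the replicate block 3, voom 2, and a filter on low means or a prior count of 0.5 none, and of 218 a fit to the compared groups alone ended 11. Leaving out 1 library ended 151 of 1596.

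With unscaled library sizes the median of all genes in NT2/D1-A4 was 0.05 with GSK-J4 and 0.06 in Combination. By adjusted p, 1 mitochondrial gene rose and 6 fell there with GSK-J4, where 7931 of all 16431 genes passed in either direction. There the cytosolic and mitochondrial medians were 0.30 and -0.051 with GSK-J4, -0.0463 and -0.0141 with cisplatin and 0.23 and -0.12 in Combination, the cytosolic interaction median was -0.0158, and 0 and 1 mitochondrial genes passed both thresholds with GSK-J4 and in Combination. In the knockdown experiment the cytosolic medians were -0.00366 with sh6A+6B and -0.0927 with sh6A+6B and cisplatin, where the mitochondrial median was 0.0278.

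With a fold over 1.2 and an adjusted p under 0.001, the cytosolic and mitochondrial counts were 13 and 2 (NT2/D1-A4 GSK-J4), 11 and 4 (NT2/D1-A4 Combination), 14 and 4 (2102EP-C1 Combination) and 4 and 1 (sh6A+6B with cisplatin). The cytosolic count was 1 for pLKO1 cisplatin and 2 for cisplatin within knockdown cells. The share of all genes past these 2 limits was not counted, so these counts have no background to be read against. With no fold limit the cytosolic and mitochondrial counts were, in NT2/D1-A4, 18 and 7 (GSK-J4), 3 and 1 (cisplatin), 19 and 11 (Combination) and 1 cytosolic (cisplatin after GSK-J4). In 2102EP-C1 they were 16 and 8, 1 and 1, 17 and 10, and 14 and 1 in the same order, with 6 cytosolic for the interaction. In the knockdown experiment they were 13 and 7, 17 and 4, 18 and 11, and 12 and 7, with 11 and 5 for the interaction.

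Leaving out 1 library, the cytosolic medians in NT2/D1-A4 ran from -0.074 to -0.0563 with cisplatin, 0.16 to 0.18 in Combination, -0.0698 to -0.0519 for cisplatin after GSK-J4 and -0.00317 to 0.0148 for the interaction, whose mitochondrial median ran from -0.0406 to 0.000775. The count of mitochondrial genes past both thresholds ran from 0 to 1 with GSK-J4 and 1 to 2 in Combination. In 2102EP-C1 the cytosolic medians ran from 0.17 to 0.23 with GSK-J4, 0.0634 to 0.12 for cisplatin after GSK-J4 and 0.0866 to 0.14 for the interaction, the mitochondrial medians of the last 2 from -0.0474 to -0.014 and -0.0421 to 0.00726, and their counts from 1 to 2 in Combination and 0 to 1 for cisplatin after GSK-J4. In the knockdown experiment the mitochondrial medians ran from -0.0595 to -0.0241 with sh6A+6B and 0.016 to 0.0635 for the interaction, and the cytosolic count from 0 to 1 with sh6A+6B and cisplatin. The cause of these shifts was not tested.

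Replicate numbers did not pair the libraries: the correlation of same-numbered deviations ran from -0.09 to 0.08, -0.06 to 0.04 and -0.04 to 0.12, and was over 0.1 for 0, 0 and 2 of 18 pairs in the 3 experiments. With the replicate block the numbers of cytosolic and mitochondrial genes past both thresholds were 8 and 1 in NT2/D1-A4 with GSK-J4 and 5 and 0 in 2102EP-C1, and in 2102EP-C1 the interaction called 5 cytosolic genes by adjusted p and SARS2 did not pass with cisplatin alone.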
